A study of Danio rerio with 2 samples.

Results

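The LSM ring and PAT1 genes encode a set of proteins that ties the shortening of an mRNA tail to removal of its cap. The genes were chosen by symbol, as the rows of the deposited table named lsm1 to lsm7, patl1 or patl2 in any letter case. Of these 9 names, 7 had a row (lsm1, lsm4, lsm5, lsm6, lsm7, patl1 and patl2), out of 32571 genes in the table. No row was named lsm2 or lsm3. Through its gene ID, the row named smx5 is LSM2 and the row named CABZ01028296.1 is LSM3 in the name table used here. Those 2 rows, and lsm8, are described beside the 7 members and are not counted among them.

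LSM proteins share the Sm fold and assemble into closed rings that hold RNA. The LSM1 to LSM7 ring is cytoplasmic and binds the end of mRNAs whose poly(A) tail has been shortened, and PAT1 proteins bridge this ring to the decapping enzyme Dcp2 and to the helicase DDX6. When LSM8 takes the place of LSM1, the ring is nuclear and binds the end of the U6 snRNA of the spliceosome. LSM1 is therefore the subunit that marks the mRNA decay ring, LSM8 the one that marks the splicing ring, and LSM2 to LSM7 belong to both. In the early embryo the pathway acts on maternal mRNAs, which are stored in the egg and then cleared.

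Whole embryos of the zebrafish strain AB were collected 6 hours after fertilization (6 hpf), when gastrulation begins. One group was the mock-injected control and the other was injected with Dcp2DN, named in the labels only by that abbreviation where DN commonly stands for a dominant-negative version of the enzyme. No other treatment and no mutation is named in the labels for either group. Total RNA from pools of 40 to 50 embryos went through ribosomal RNA depletion, which also retains transcripts with no poly(A) tail, and a value is an average over all cells of many embryos. Fewer cells of a type and less RNA per cell cannot be told apart in such samples.

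The labels hold 1 sample per group, although 3 replicates are stated in the design text. The authors' deposited table gave 1 FPKM value per gene and group, where FPKM is a fragment count scaled for transcript length and sequencing depth, so the values carry no SD and no n. Depth is unknown. A gene is described as called where the authors' deposited Cuffdiff result had a q-value (a p-value adjusted over all tested genes) under 0.05. How many libraries entered that test was not given in the sources used here, and the spread it measures may be technical or may leave out separate pools of embryos. Of 12 symbols listed for marker genes of the gastrula, 10 had a row. These rows were at 35.8 to 917 FPKM in mock and 46.6 to 688 FPKM in Dcp2DN embryos. Genes of later tissues reached at most 2.11 FPKM. The gene dcp2 itself has a pair of rows, neither of them called. In mock and Dcp2DN embryos, ENSDARG00000039016 measured 13.9 and 16.7 FPKM and ENSDARG00000089419 measured 0.0398 and 212 FPKM. The missing call does not show that the level of the second row stayed the same. Whether either row includes sequence of the injected Dcp2DN was not tested.

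Part of the pathway was higher in Dcp2DN embryos and the rest was not called. The mRNA decay subunit gene lsm1, the shared ring subunit gene lsm4 and the PAT1 gene patl2 rose 2.045-fold, 1.8-fold and 1.58-fold. The genes lsm5, lsm6, lsm7 and patl1 had no call, with FPKM values in Dcp2DN embryos at 0.904 to 1.03 times those in mock. Thus 3 of the 7 members (42.9%) were called higher by the authors' deposited table, beside 20.6% of the 14810 tested genes. With LSM2 and LSM3 by ID the share was 33.3% of 9 genes. All 3 called members rose at least 1.5-fold, as 11.9% of tested genes did with a call. All 3 had the lowest p of the authors' deposited table, as did 7.89% of tested genes with a rise. None of the 7 was called lower, beside 4.35% of tested genes, and at an unadjusted p under 0.05 the members still held 3 rises and 0 falls, beside 27.5% and 8.22% of tested genes. The median log2 ratio of the members was 0.039, against 0.12 over the 15457 genes whose mean reached 1 FPKM. It was 0.26 above the median of the ribosomal protein genes. Each member but lsm6 lay above the median of tested genes within 1.5 times its own mean FPKM. These medians ran from -0.051 at the level of lsm5 to 0.17 at that of lsm1. Where the list stood thus depended on the reference.

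**Figure D1:**
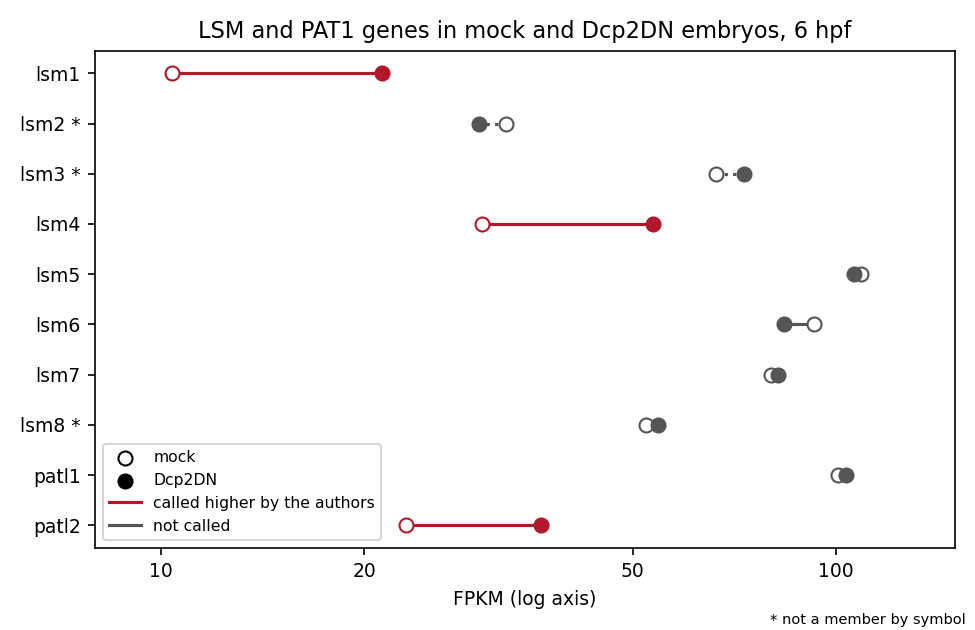
FPKM on a log axis of each LSM and PAT1 gene in mock (open circles) and Dcp2DN embryos (filled circles), 1 authors' value per group and no error. The red lines of lsm1, lsm4 and patl2, called higher, start at 10.4, 29.9 and 23.1 FPKM, while the uncalled members start at 80.1 FPKM or more. Asterisks mark genes that are not members by symbol.

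The gene lsm1 (ENSDARG00000043177, chromosome 8, 46922775 to 46927854, a locus span on Zv9 in the coordinates of the deposited table) was the least abundant of the ring. Its level was 10.4 FPKM in mock and 21.2 FPKM in Dcp2DN embryos. This was the largest change among the members, a log2 ratio of 1.025, with p = 5e-05 and q = 0.000593 in the authors' deposited table. That p is the lowest the table holds, and 1249 rows share it. Of all tested genes, 3.51% had a higher log2 ratio. Among the 3094 tested genes within 1.5 times its mean level, 28.3% were called higher and 2.68% had a higher log2 ratio, so the call itself was common at this level and the size was not.

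The partner that distinguishes the nuclear ring, lsm8 (ENSDARG00000091656, chromosome 4, 8608851 to 8611255), was measured at 52.3 FPKM in mock and 54.6 FPKM in Dcp2DN embryos. It was not called (q = 0.815 in the authors' deposited table). The level of lsm1 was 0.199 of that of lsm8 in mock and 0.389 in Dcp2DN embryos. The transcript of the decay subunit thus stayed below that of the splicing subunit in both groups, at about a 1.96 times higher proportion in Dcp2DN embryos. The proportion itself was not tested.

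The gene lsm4 (ENSDARG00000023852, chromosome 11, 6942542 to 6950954) encodes a subunit shared by both rings. Its level went from 29.9 FPKM in mock to 53.6 FPKM in Dcp2DN embryos, a log2 ratio of 0.84, with q = 0.000593 in the authors' deposited table. It moved from eighth to seventh in level among the 10 LSM and PAT1 genes measured here. Of the 2301 tested genes at a like level, 21.5% were called higher and 3.17% had a higher log2 ratio. A 5S_rRNA row lies within the same locus span and is listed at 0 in both groups.

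The other shared subunits had no call, and the values of both groups lay close together. The gene lsm5 (ENSDARG00000071573, chromosome 12, 14425175 to 14443081) was the most abundant, at 109 FPKM in mock and 106 FPKM in Dcp2DN embryos (q = 0.880 in the authors' deposited table). Its locus span is shared with psme2, a proteasome activator gene at 0.311 and 0.283 FPKM, and how reads of overlapping genes were divided was not given in the sources used here. The gene lsm6 (ENSDARG00000036995, chromosome 1, 35902875 to 35912115) had 92.8 FPKM in mock and 83.9 FPKM in Dcp2DN embryos, the lowest ratio of the members (log2 ratio -0.15, q = 0.466 in the authors' deposited table). The gene lsm7 (ENSDARG00000058328, chromosome 22, 10862660 to 10866197) had 80.1 FPKM in mock and 82.0 FPKM in Dcp2DN embryos (q = 0.873 in the authors' deposited table). Relative to the median of all genes (0.12), the log2 ratios of lsm5, lsm6 and lsm7 were -0.15, -0.26 and -0.084. Before this subtraction they were -0.035, -0.15 and 0.033. Tested genes within 1.5 times the mean FPKM of each had medians of -0.051, -0.026 and -0.01, so only lsm6 was below that median. Of these like-level genes, 47.2%, 68.6% and 43.1% had a higher log2 ratio than lsm5, lsm6 and lsm7. The distances from the medians were not tested.

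Both ring genes found by ID were also without a call. The LSM2 row smx5 (ENSDARG00000070867, chromosome 6, 27913865 to 27916605) measured 32.4 FPKM in mock and 29.6 FPKM in Dcp2DN embryos (q = 0.509 in the authors' deposited table). The LSM3 row CABZ01028296.1 (ENSDARG00000089663, chromosome 22, 34461569 to 34472027) was at 66.5 and 73.2 FPKM (q = 0.503 in the authors' deposited table). In mock embryos smx5 and lsm4 stood side by side, at 32.4 and 29.9 FPKM, and in Dcp2DN embryos lsm4 was the higher, at 53.6 against 29.6 FPKM.

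Across the LSM1 to LSM7 subunits, counting LSM2 and LSM3 by ID, the most abundant gene exceeded the least abundant 10.5-fold in mock and 5-fold in Dcp2DN embryos. In both groups these extremes were lsm5 and lsm1. Across LSM2 to LSM8 the same ratio was 3.64 in mock and 3.58 in Dcp2DN embryos. The summed level of LSM1 to LSM7 was 421 FPKM in mock and 450 FPKM in Dcp2DN embryos, 1.07 times as much. The order of levels in mock was lsm5, patl1, lsm6, lsm7, LSM3, lsm8, LSM2, lsm4, patl2 and lsm1. In Dcp2DN embryos LSM2 came after lsm4 and patl2 and the order was otherwise the same. Whether neighbours in this order differ beyond their spread cannot be said, since the table holds no error per group.

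PAT1 is encoded by a pair of genes in vertebrates. PATL1 is the widely expressed form, a component of P-bodies, and PATL2 is the form of oocytes, known in Xenopus for repressing translation of stored mRNAs and in human for its role in oocyte maturation. The gene patl2 (PATL2 in the table, ENSDARG00000089567, chromosome 12, 14197919 to 14212261) went from 23.1 FPKM in mock to 36.5 FPKM in Dcp2DN embryos. Its log2 ratio was 0.66, with q = 0.000593 in the authors' deposited table. Among the 2700 tested genes at a like level, 24.6% were called higher and 8.7% had a higher log2 ratio.

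The gene patl1 (ENSDARG00000017423, chromosome 1, 53259934 to 53286415) stood at 101 FPKM in mock and 104 FPKM in Dcp2DN embryos and was not called (q = 0.967 in the authors' deposited table). It remained the more abundant PAT1 gene in both groups. The share of patl2 in the summed level of both genes was 18.6% in mock and 26.1% in Dcp2DN embryos. The difference between the changes of patl1 and patl2 was not tested.

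The precision of these ratios was of a like order except for patl1, where it was far lower. An approximate standard error of a log2 ratio can be read from the authors' deposited test statistic, as the ratio divided by the statistic, or from the deposited p-value through the normal distribution. Over 13541 tested genes the statistic was at the median 0.602 times the normal quantile of the p-value, so the first error is usually the wider. That first error was 0.145 to 0.237 for every LSM and PAT1 gene measured here but patl1, where it was 0.901. From the statistic, the approximate 95% interval of the log2 ratio was 0.58 to 1.49 for lsm1, 0.38 to 1.31 for lsm4 and 0.26 to 1.06 for patl2. The interval of lsm1 lay above those of lsm5, lsm6 and lsm7, whose upper bounds were 0.41, 0.32 and 0.34, and above that of lsm8, which ran from -0.24 to 0.36. The interval of lsm4 overlapped that of lsm5, and the interval of patl2 overlapped those of lsm5, lsm6 and lsm7. The lower bounds of lsm5, lsm6 and lsm7 were -0.48, -0.61 and -0.27. A change the size of lsm1 was thus outside the intervals of these 3 genes, and a change up to 1.33-fold higher was inside that of lsm5.

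For patl1 the same interval ran from -1.73 to 1.81, or from 0.302 to 3.5 times the mock level. The p-value gave a narrower interval, from -0.93 to 1.004. Its standard error from the statistic, 0.901, was larger than that of 98.4% of the 1074 tested genes at a like level, whose median was 0.184. A change of patl1 as large as that of patl2 lay inside both intervals, and the missing call does not show that its level stayed the same. The interval of a gene with a p near 1 is itself poorly determined.

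**Figure D2:**
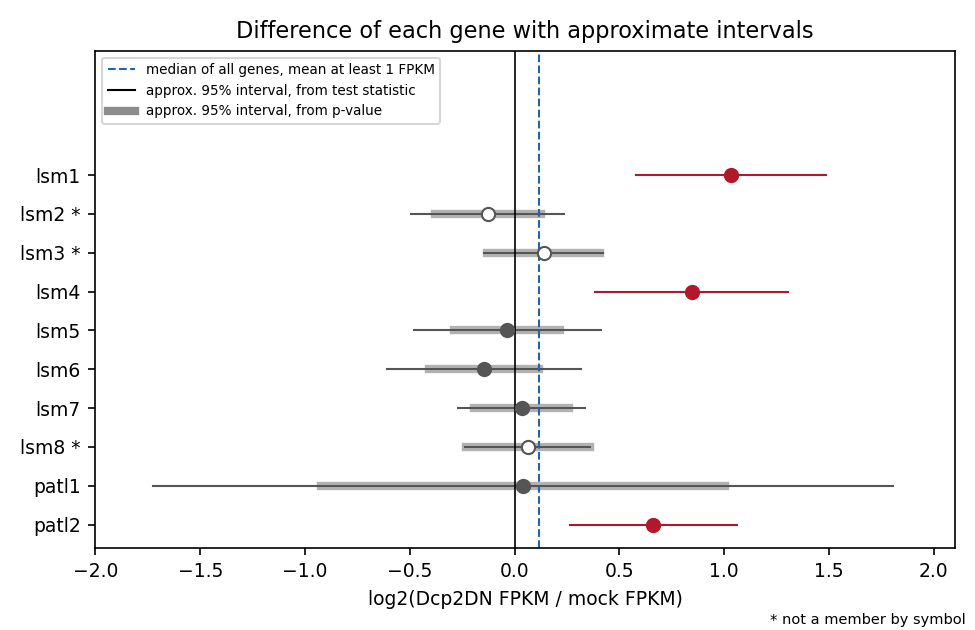
Log2 ratio of Dcp2DN over mock FPKM for each gene (points) with approximate 95% intervals from the authors' test statistic (thin lines) and, where p was above its lowest value, from the p-value (thick lines). The intervals of lsm1, lsm4 and patl2 lie above 0, that of patl1 is the widest (-1.73 to 1.81), and the dashed line is the median of all genes, 0.12. Open points with an asterisk are not members by symbol.

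The 3 called members were the 3 least abundant of the 7 in mock embryos, below 30 FPKM, and the 4 uncalled ones were all above 80 FPKM. The LSM2 row, at 32.4 FPKM in mock, was close in level to lsm4 and was not called. Calls higher were also less frequent among abundant genes in general. In the authors' deposited table, 13.6% of tested genes at a level like that of lsm5, 14.6% like lsm6, 15.3% like lsm7 and 14.2% like patl1 were called higher, against 28.3% like lsm1. The part of expression level in the members' pattern was not tested.

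**Figure D3:**
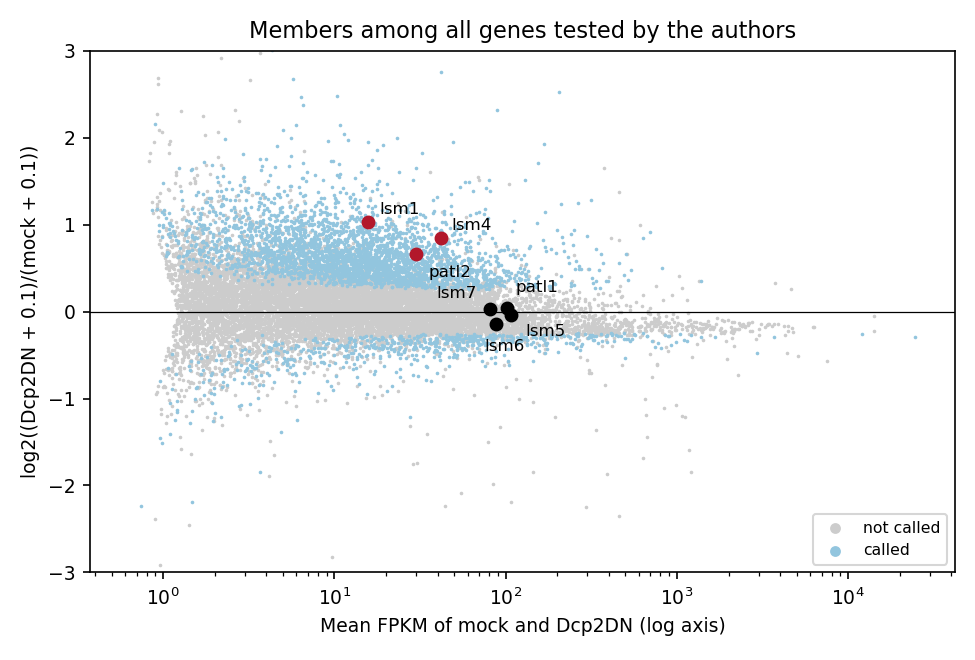
Log2 ratio with a pseudocount of 0.1 FPKM against the mean FPKM of both groups for the 14810 genes tested by the authors (blue called, grey not called), with the 7 members marked. The called members lsm1, lsm4 and patl2 lie at 0.66 to 1.025 and the others between -0.15 and 0.039. Outside the plot are 33 genes beyond 3 in either direction.

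On the chromosome, lsm1 lies between grk5l, a G protein-coupled receptor kinase gene, and bag4, a co-chaperone gene. Both were called higher in the authors' deposited table. The gene bag4 begins 1776 bases from the lsm1 span and went from 33.3 FPKM in mock to 54.8 FPKM in Dcp2DN embryos, 1.65-fold. The gene grk5l went from 6.95 to 13.0 FPKM, 1.88-fold, at a distance of 5325 bases. The nearest tested neighbours of lsm4 (rab3ab and ddx49) and of patl2 (CCSER2 (2 of 2) and pelo) were not called. The helicase gene ddx49 was at 28.8 and 26.0 FPKM, 1023 bases from lsm4. Next to lsm5, 161 bases away, the membrane protein complex gene emc9 was called higher, from 9.73 to 20.02 FPKM, while lsm5 was not. The gene sass6, 38 bases from lsm7, was called higher as well, from 29.3 to 36.7 FPKM, while lsm7 was not. Of the nearest neighbours, 2 of 6 beside called members and 3 of 8 beside uncalled members were called higher in the authors' deposited table, beside 20.6% of all tested genes. These neighbours lay at very unlike distances, from 38 bases (sass6) to 461541 bases (ednraa, beside lsm6). Whether reads of a neighbour entered a member's value was not tested.

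The 3 tested genes with values most like those of lsm1, by Euclidean distance of log2(FPKM + 0.1) over the 2 groups, were asb8 (10.1 FPKM in mock, 21.2 FPKM in Dcp2DN embryos), aldh3a2a (10.6 and 21.7 FPKM) and C9H21orf33 (10.6 and 21.9 FPKM). Their distances were 0.038, 0.041 and 0.052, among 14589 candidate genes. With only 2 groups, such likeness means equal levels and nothing further.

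Genes of other proteins with the LSM fold were called higher in 4 of 12 tested cases and lower in 0 in the authors' deposited table. At an unadjusted p under 0.05 they held 5 rises and 0 falls. The 12 include lsm8, described above and not called. The called rises were 33.3% of the list, beside 20.6% of all tested genes. The largest called rise was that of lsm14b, which encodes a partner of DDX6 in stored mRNPs, from 46.2 to 77.7 FPKM (1.68-fold). The genes lsm12a (38.0 to 60.3 FPKM, 1.59-fold), lsmd1 (20.9 to 31.2 FPKM, 1.49-fold) and GEMIN6 (16.2 to 25.4 FPKM, 1.56-fold), the latter for a subunit of the SMN complex that assembles Sm rings, also rose. The locus of lsmd1 overlaps 4 other rows. The paralogs lsm14aa, the most abundant of this list, and lsm14ab were not called, at 76.0 and 92.5 FPKM and at 65.1 and 73.1 FPKM in mock and Dcp2DN embryos. The histone pre-mRNA ring gene lsm10 was not called, at 9.21 and 8.26 FPKM, and its partner lsm11 was listed at 0 in mock in both of its rows.

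The Sm ring genes, whose products form the related ring on the other spliceosomal snRNAs, had no called rise, beside 20.6% of all tested genes. All 8 tested genes had a lower FPKM in Dcp2DN than in mock embryos, but the authors' deposited table called only snrpb lower, from 607 to 509 FPKM (1.19-fold lower, q = 0.0408), 12.5% of the list beside 4.35% of all tested genes. At an unadjusted p under 0.05 it held 0 rises and 2 falls of these genes. Of the others, snrpd1 was at 256 and 222 FPKM and snrpg at 108 and 93.5 FPKM, and the locus of snrpg overlaps 5 other rows. The median log2 ratio of this list was -0.19, and -0.31 relative to all genes. The 83 ribosomal protein genes had a median of -0.22. A median of genes at levels like those of the Sm ring genes was not computed. Their levels in mock, 108 to 607 FPKM, overlapped those of the LSM members by symbol, 10.4 to 109 FPKM, only at lsm5.

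Among partners of the nuclear LSM ring in the U6 snRNP and tri-snRNP, 1 of 19 tested genes was called higher and 3 were called lower in the authors' deposited table. These shares were 5.26% and 15.8%, beside 20.6% and 4.35% of all tested genes. At an unadjusted p under 0.05 the list held 1 rise and 6 falls, beside 27.5% and 8.22% of tested genes. The 7SK and U6 capping enzyme gene mepce rose from 53.1 to 74.7 FPKM (1.41-fold). The tri-snRNP genes prpf8 (186 to 148 FPKM, 1.26-fold lower), prpf6 (91.98 to 74.2 FPKM, 1.24-fold lower) and prpf31 (179 to 146 FPKM, 1.23-fold lower) fell. Cuffdiff gave prpf8, prpf6 and prpf31 q-values of 0.0038, 0.0389 and 0.0356, so only prpf8 was also under 0.01. The test statistics of these 3 falls were -1.95, -2.04 and -1.52, against 4.46, 3.59 and 3.25 for lsm1, lsm4 and patl2. The gene SNRNP200, whose locus overlaps 1 other row, was 1.33-fold lower, at 97.5 FPKM in mock and 73.3 FPKM in Dcp2DN embryos. It was not called (q = 0.0521 in the authors' deposited table). The U6 recycling factor gene sart3 was at 91.6 and 95.8 FPKM, without a call, and nhp2l1b, the most abundant of this list, at 363 and 384 FPKM. The U6 snRNA itself could not be followed, since all 706 rows named U6 were listed at 0 in both groups and untested.

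In the cytoplasmic pathway, the authors' deposited table held 3 rises and 0 falls with a call among 13 tested rows of decapping factors and partners (5 and 0 at an unadjusted p under 0.05). The called share of 23.1% was near the 20.6% of all tested genes, so the count is no result about this list. The largest called rise was that of ddx6, the helicase bound by PAT1, from 30.6 to 52.0 FPKM (1.7-fold). The Dcp2 activator genes dcp1a (9.6 to 13.8 FPKM, 1.44-fold) and dcp1b (4.72 to 6.79 FPKM, 1.44-fold) rose as well. The scaffold genes edc3 (16.8 and 17.9 FPKM) and edc4 (52.7 and 46.4 FPKM), the scavenger decapping enzyme gene dcps (89.3 and 90.8 FPKM) and the exonuclease gene xrn1 (49.9 and 42.8 FPKM) were not called. The most abundant of the list, pnrc2, a Dcp1 partner, was at 4198 and 5028 FPKM without a call. The 13 rows also hold both uncalled dcp2 rows, among them ENSDARG00000089419 at 0.0398 FPKM in mock and 212 FPKM in Dcp2DN embryos. Whether that row includes sequence of the injected Dcp2DN was not tested.

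The deadenylases act before the LSM1 to LSM7 ring, and 3 rises and 0 falls of their 14 genes had a call in the authors' deposited table (4 and 0 at an unadjusted p under 0.05). This share, 21.4%, was also near the 20.6% of all tested genes. The catalytic subunit genes cnot7 (4.55 to 7.998 FPKM, 1.76-fold) and cnot8 (111 to 150 FPKM, 1.35-fold) and the regulatory subunit gene cnot3b (20.4 to 27.4 FPKM, 1.34-fold) rose, while cnot6, the most abundant, was at 141 and 160 FPKM without a call. The exosome list holds exosome subunits and related genes, among them exonucleases and helicases. In the authors' deposited table, only exosc4 of its 16 tested genes was called higher (57.7 to 87.4 FPKM, 1.52-fold) and 0 were called lower. At an unadjusted p under 0.05 the list held 1 rise and 0 falls. The called share was 6.25%, beside 20.6% of all tested genes. The most abundant gene of the list, DIS3L2, which encodes an exonuclease that works apart from the exosome, was at 94.6 and 93.3 FPKM.

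Factors of stored maternal mRNPs in oocytes include PATL2, DDX6 and LSM14B. The list of such factors used here holds ddx6 and lsm14b but not the member patl2. In the authors' deposited table, 5 of its 13 tested genes were called higher and 0 lower (5 and 0 at an unadjusted p under 0.05). The called share was 38.5%, beside 20.6% of all tested genes. The egg gene zar1l rose most, from 44.9 to 118 FPKM (2.62-fold), with a locus that overlaps 1 other row. The others were dazl, an RNA-binding germ cell gene, ddx6, lsm14b and the oocyte poly(A)-binding protein gene pabpc1l (25.6 to 39.1 FPKM, 1.53-fold). Of the 13 tested genes, 8 had a higher and 5 a lower FPKM in Dcp2DN than in mock embryos. Their median log2 ratio was 0.080, and -0.038 relative to all genes. Without a call, zar1 was at 13.8 and 14.6 FPKM and pabpc1a at 670 and 549 FPKM in mock and Dcp2DN embryos. The most abundant of this list, ybx1, was at 815 and 735 FPKM without a call, and eif4enif1, a partner of DDX6, at 36.4 and 41.5 FPKM. This list shares ddx6 and eif4enif1 with the decapping list and lsm14b with the LSM-fold list.

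**Figure D4:**
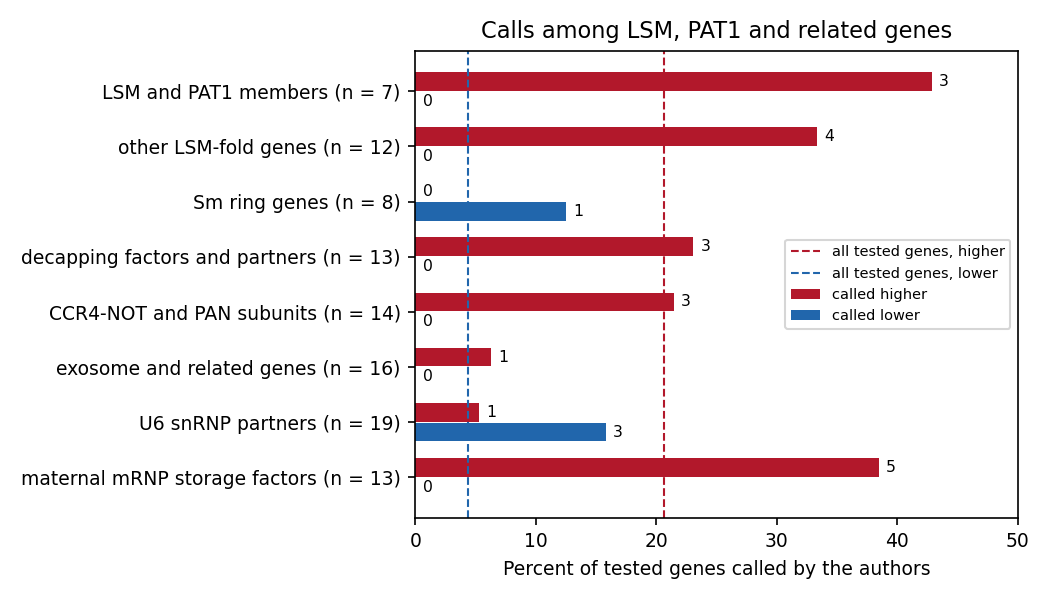
Percent of the tested genes of each list called higher (red) or lower (blue) in the authors' deposited table, with the number of called genes at each bar. The dashed lines are the shares among all 14810 tested genes, 20.6% and 4.35%, and the LSM and PAT1 members reach 42.9% on 3 of 7 genes.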

How the data were processed

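Total RNA of mock and Dcp2DN zebrafish embryos was compared through 1 gene-level table with the header of a Cuffdiff output. Per the submitters' processing notes, the tools were TopHat 1.4.0 and Cuffdiff 2.1.1, on the assembly listed as Zv9 or danRer7. Annotation, library scaling and strand setting are not given in the sources used here. The deposited values are, per the file headers, an FPKM estimate of each gene in either group, a p-value, a q-value and a test statistic, which is a score. No values of single libraries were at hand, and with them replicate errors, count models and depth were out of reach.

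From these values log2((Dcp2DN + 0.1)/(mock + 0.1)) was computed, and this scale shrinks the change of low genes. Folds are ratios without a pseudocount. A call is the authors' q-value under 0.05, which applied to 14810 tested rows. Genes at a like level are tested genes within 1.5 times a member's mean FPKM. Approximate standard errors are the log2 ratio without a pseudocount divided by the test statistic or by the normal quantile of the p-value. Only the formula with the p-value was tried on simulated normal data, where it returns the known error by construction. That trial does not show how well either error describes these data. The statistic was not a number in 20 tested rows.

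The members and the lists were chosen with earlier results of these data known. Besides all members, the named genes are lsm8 and, from each list, the largest called rise and fall and the most abundant gene. Other genes of the lists, the neighbours and the like-level comparison were chosen after the values were seen. All 7 member IDs were found in the name table. Python 3.11.15, NumPy 2.4.6, pandas 2.3.3, SciPy 1.17.1 and matplotlib 3.10.9 were used.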

Additional observations from a re-analysis of the deposited data

How the results depend on the processing

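The counts of 3 members called higher and 0 called lower were the same at q under 0.01, at an unadjusted p under 0.05, with a minimum of 1.5-fold and with a mean of at least 1 FPKM. They were also the same in 2 alternatives chosen after seeing the data, with LSM2 and LSM3 by ID and with calls from the normal p of the deposited test statistic, which called 946 genes higher in all against 3051. With LSM2 and LSM3 by ID the share called higher fell to 33.3% of 9 genes, from 42.9% of the 7 members. Leaving out members that share a locus removed lsm4 and lsm5. Of the remaining members, 2 (lsm1 and patl2) were called higher and 0 lower. The median log2 ratio of the members relative to all genes, -0.078, lay between -0.080 and -0.025 with other pseudocounts or reference genes. It turned to 0.26 when ratios were centred on 83 ribosomal protein genes, whose own median was -0.22. Relative to the median of all genes, the log2 ratios of lsm7 and patl1, neither called, turned to -0.084 and -0.078. No other result for a single member changed its direction or its call in the alternatives run. Calls within the other gene lists were not recounted in these alternatives. No paired analysis was possible because the table holds 1 value per group, and for the same reason leaving out a replicate and a count-based test were not run.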
